A study of Drosophila melanogaster with 53 samples.

Results

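The small heat shock protein genes of *Drosophila melanogaster* were followed through adult muscle of ageing males and of young mutant females. They were taken by name as the 7 genes Hsp22, Hsp23, Hsp26, Hsp27, Hsp67Ba, Hsp67Bc and l(2)efl, of which 6 have values in at least 1 expression table and Hsp22 is not analysed here. The male ageing table holds 6 of them among 10657 genes, the female table of Atg8a and daw mutants holds 6 among 10222, and the female table of miR-252 and foxo mutants holds 5 among 10258. Hsp67Ba has no row in the table of miR-252 and foxo mutants.

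The series measured polyadenylated RNA in 53 samples of 19 groups. The genotypes concern miR-252, a microRNA, FoxO, a stress-responsive transcription factor of the insulin pathway, Dawdle (daw), an Activin-type TGF-β ligand, and Atg8a, a ubiquitin-like protein of autophagosome membranes. The control (WT) line was 5905, of the w1118 background. Every muscle group had 3 samples, and the groups without the word axenic came from standard food.

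All mutant muscle was from females 3 d after eclosion. The miR-252 and foxo set held 5 groups: mir-252c328/c328 mutants, foxoc431/c431 mutants, double mutants homozygous for the mir-252c328 foxoc431 chromosome, the same double mutants with 1 mutant copy of daw (dawc458/+), and WT. In the Atg8a and daw set were atg8ac320/c320 mutants, daw-3'UTRc82/c82 mutants, daw-3'UTRc82/c82; foxoc431/c431 double mutants, and WT. Axenic foxoc431/c431 females and axenic WT females of the same age were raised on antibiotic food. The ageing set was muscle of WT males at 3, 15, 30 and 45 d. Ago1 precipitates and their inputs came from whole flies of both sexes with pBID-UAS-HA-Ago1/+; GS-tubulin-GAL4/+ at 3 and 30 d, with 2 samples a group, so they do not report on muscle alone. What each allele removes and how many flies went into a sample are not given in the sources used here.

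Small heat shock proteins are chaperones with a shared alpha-crystallin domain that bind unfolding proteins without using ATP and hold them for refolding by the Hsp70 system. In flies their genes are switched on by heat shock factor, Hsf, under heat and other protein-damaging stress, and several also change in development and ageing. Hsp23 and Hsp26 act in the cytosol, Hsp27 mostly in the nucleus, and Hsp67Bc works with the co-chaperone Starvin (stv) in autophagy. Lethal (2) essential for life, l(2)efl, is related to vertebrate alpha-B crystallin and has been described as a FoxO target in flies.

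The 39 muscle libraries with values held 2358162 to 4078819 reads. In the ageing set, 3 d replicate 3 stood apart: its mean correlation with the other libraries of its age was 0.847. The other 3 d libraries had 0.912 and 0.913, and all libraries outside that age had 0.969 to 0.988. Member calls in the ageing comparisons are therefore also given without 3 d replicate 3. Of the 10 adult muscle markers, all were listed in each table, with summed levels of 32380 to 200900 normalised counts. Markers of other tissues were abundant too, with library sums of 8289 to 31770 counts for fat body and 6674 to 31680 for gut. These sums differed between groups. Gut sums were 12280 to 13530 in miR-252 mutants, 21640 to 24600 in foxo mutants and 17380 to 21090 in WT of that set. The part of fat body and gut RNA in the member values was not tested. No testis or accessory gland marker was listed in the female tables, and in males the 4 listed summed to at most 54.8 counts. Ovary and egg markers, which have no row for males, summed to at most 19.5 counts in the Atg8a and daw set. Among the miR-252 and foxo genotypes, WT had the widest range, 7.40 to 144 counts, and the highest median, 76.9. The sums reached at most 68.1 in foxo mutants, 31.3 in double mutants with 1 mutant daw copy, 24.1 in double mutants and 17.5 in miR-252 mutants. What such RNA contributes to the contrasts with WT was not tested. The mutated gene checked the Atg8a label, with 43.0 to 60.4 normalised counts in Atg8a mutants, against 2421 to 3569 in WT. The foxo transcript was not lower in foxo mutants, at 715 to 829 counts, against 534 to 617 in WT, so its count does not check that label. No label says that samples of a group came from separate cultures, so p-values measure the spread between samples, which may be technical.

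Of the 7 genes, 6 lie in 1 cluster of 14184 bases on chromosome arm 3L, at cytological position 67B (build BDGP6.54, 9371511 to 9385694). Along it stand Hsp67Bc (9371511 to 9372497, minus strand), Hsp22 (9372931 to 9374964, plus), Hsp26 (9376418 to 9377427, minus), Hsp67Ba (9377802 to 9379534, minus), Hsp23 (9381882 to 9382765, plus) and Hsp27 (9384063 to 9385694, plus). The gene l(2)efl lies outside the cluster, on 2R. Hsp23, Hsp26, Hsp27, Hsp67Ba and Hsp67Bc are each annotated with 1 exon block, and l(2)efl with 3. Strand use in the counting is not given, and 75.9% of the exonic bases of Hsp67Ba are shared with an antisense RNA gene, so its counts are uncertain; Hsp27 shares 3.00% and l(2)efl 10.1% with a gene on the other strand.

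Levels can be compared between genes per kilobase of exon. In WT females of the miR-252 and foxo set, l(2)efl stood highest at 619 normalised counts per kb, followed by Hsp26 at 56.5, Hsp23 at 14.0 and Hsp27 at 7.76 normalised counts per kb. WT females of the Atg8a and daw set gave the same order, with 708, 29.2, 7.96 and 4.72 normalised counts per kb for these genes. In 3 d males Hsp26 was first at 1161 ± 480 counts per kb, before l(2)efl at 647 ± 172, and their libraries' ranges overlapped. Hsp23 at 244 ± 79.3 and Hsp27 at 241 ± 60.7 counts per kb did not differ beyond their spread, Hsp67Bc stood at 23.8 ± 6.76 and Hsp67Ba at 2.65 ± 1.61 (SD, n = 3 each). The tables were normalised separately, so the male and female levels are not set against each other.

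Hsp23, Hsp26 and Hsp27 were all 6.58- to 10.7-fold higher in muscle mutant for both miR-252 and foxo than in WT, and none of them passed the test in either single mutant. The gene l(2)efl went with the foxo genotype: it was lower than WT in each of the 3 groups homozygous for the foxo allele and did not pass in the miR-252 mutant. Bulk RNA cannot tell fewer cells of a type from less RNA per cell, here or in any later comparison.

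Hsp26, a cytosolic chaperone, had 321, 530.5 and 382 normalised counts in the miR-252 foxo double mutants. It had 40.7, 75.5 and 24.3 in miR-252 mutants, 46.5, 49.3 and 18.9 in foxo mutants, and 61.3, 83.8 and 25.98 in WT. All 3 double mutant libraries lay above all 9 others, which overlapped, and the third library was the lowest in each of those 3 groups. The share of all genes that separate in this way was not counted. Lack of overlap is therefore a description only, here and in every later comparison. Hsp27, the nuclear member, had 92.3, 182.0 and 118.0 counts in the double mutants. It had 8.34, 18.4 and 9.71 in miR-252 mutants, 15.5, 13.5 and 7.33 in foxo mutants, and 15.9, 18.0 and 4.16 in WT. The double mutants again did not overlap any other group, and the single mutants overlapped WT. Hsp23, the other cytosolic member of the cluster, had 64.6, 110.3 and 89.9 counts in the double mutants. It had 9.38, 15.7 and 10.7 in miR-252 mutants, 17.7, 23.2 and 10.5 in foxo mutants, and 14.8, 11.97 and 10.4 in WT, with the same separation.

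In limma's test over all 8357 genes of the set, all 4 tested members passed between the double mutants and WT, 3 higher and 1 lower, where 25.2% of all genes passed. Hsp27 rose by 3.42 on the log2 scale (SE 0.43, adjusted p = 1.00e-05), Hsp26 by 2.95 (SE 0.46, adjusted p = 8.17e-05) and Hsp23 by 2.72 (SE 0.30, adjusted p = 2.40e-06). These are differences of log2 of the normalised count plus 1. The tests against each single mutant gave similar sizes. Against miR-252 mutants all 4 members passed, where 18.9% of genes passed, with Hsp26 at 3.22 (adjusted p = 7.19e-05), Hsp27 at 3.34 (adjusted p = 2.92e-05) and Hsp23 at 2.79 (adjusted p = 4.77e-06). Against foxo mutants 3 of the 4 passed, where 9.01% of genes passed, with Hsp26 at 3.48 (adjusted p = 8.36e-05), Hsp27 at 3.33 (adjusted p = 7.34e-05) and Hsp23 at 2.33 (adjusted p = 6.96e-05).

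**Figure D1:**
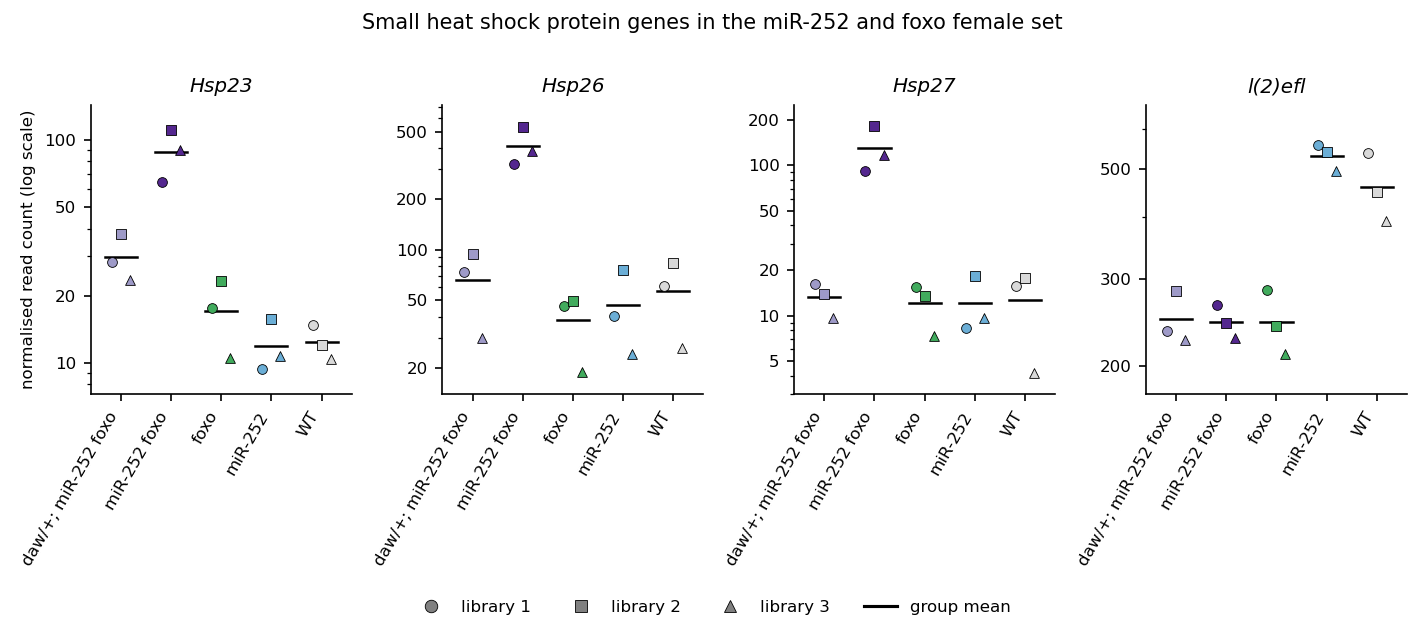
Normalised counts of Hsp23, Hsp26, Hsp27 and l(2)efl on a log axis, 1 point per library and a bar at the mean of 3, in muscle of 3 d females of the miR-252 and foxo set. Hsp26 lies between 321 and 530.5 in the miR-252 foxo double mutants and below 100 elsewhere, while l(2)efl lies between 212 and 284 in foxo mutants, double mutants and double mutants with 1 mutant daw copy, below WT.

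The single mutants by themselves gave little. In miR-252 mutants against WT none of the 4 tested members passed in limma, 0 had an unadjusted p under 0.05, and edgeR and DESeq2 called 0 as well, where 4.39% of all genes passed. The differences were -0.27 for Hsp26 (95% interval -1.23 to 0.68), -0.07 for Hsp23 (-0.70 to 0.56), 0.08 for Hsp27 (-0.83 to 0.99) and 0.22 for l(2)efl (-0.06 to 0.50), on the log2 scale. Intervals of this width do not show equal levels. In foxo mutants against WT 1 of the 4 passed, l(2)efl, where 11.8% of all genes passed. The remaining members gave 0.38 for Hsp23 (adjusted p = 0.463), -0.53 for Hsp26 (adjusted p = 0.518) and 0.09 for Hsp27 (adjusted p = 0.928).

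The double mutant therefore exceeded the sum of the single effects for 3 members in limma's interaction test. The excess was 3.75 for Hsp26 (SE 0.65, adjusted p = 0.00246), 3.25 for Hsp27 (SE 0.61, adjusted p = 0.00596) and 2.40 for Hsp23 (SE 0.43, adjusted p = 0.00313) on the log2 scale. Of the 4 tested members 3 passed, where 2.09% of all genes passed. For l(2)efl the interaction was -0.21 (SE 0.19, adjusted p = 0.743), with an interval of -0.61 to 0.19. Hsp67Bc, at 0.921 to 7.36 normalised counts in these libraries, was tested only with no filter on low values, and not called there.

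The l(2)efl values fell into a high and a low level. It had 284, 241 and 212 normalised counts in foxo mutants, 265, 245 and 228 in the double mutants and 236, 284 and 226 in the double mutants with 1 mutant copy of daw. It had 557, 540 and 495 in miR-252 mutants and 537, 448 and 392 in WT. No library homozygous for the foxo allele reached any library with normal foxo. Against WT it fell by 0.90 on the log2 scale in foxo mutants (SE 0.13, adjusted p = 0.000168), by 0.89 in the double mutants (adjusted p = 6.18e-05) and by 0.88 in the double mutants with 1 mutant daw copy (adjusted p = 0.000153), which is 0.537-, 0.540- and 0.544-fold the WT level. It also fell by 1.11 in the double mutants against miR-252 mutants (adjusted p = 1.60e-05). Between double and foxo mutants the difference was 0.01 (95% interval -0.27 to 0.29), and all these contrasts share libraries.

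Hsp23, Hsp26 and Hsp27 were all lower in double mutants that carried 1 mutant copy of daw than in double mutants with both normal copies. Hsp26 had 74.2, 94.9 and 29.9 normalised counts in double mutants with 1 mutant daw copy, against 321, 530.5 and 382 in double mutants. Hsp27 had 16.4, 14.0 and 9.62 counts, against 92.3, 182.0 and 118.0. Hsp23 had 28.4, 37.8 and 23.5 counts, against 64.6, 110.3 and 89.9. For each gene every library with the daw allele lay below every double mutant library, which is a description only.

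Of the 4 tested members 3 passed in this comparison, all lower, where 5.09% of all genes passed. Hsp27 fell to 0.111 of the double mutant level (log2 -3.17, SE 0.43, adjusted p = 0.000444), Hsp26 to 0.150 (log2 -2.73, SE 0.46, adjusted p = 0.00288) and Hsp23 to 0.348 (log2 -1.53, SE 0.30, adjusted p = 0.00898). For l(2)efl the difference was 0.01 (95% interval -0.27 to 0.29). Against WT, double mutants with 1 mutant daw copy still differed in 2 of the 4 members, where 15.9% of all genes passed: l(2)efl was lower, and Hsp23 was 2.29-fold higher (log2 1.19, adjusted p = 0.0104). The Hsp23 call rests on replicate 2 of the daw group, without which the log2 difference was 1.02 with adjusted p = 0.0573. Hsp26 at 0.22 (adjusted p = 0.812) and Hsp27 at 0.25 (adjusted p = 0.761) did not pass. The daw transcript itself had 361 to 468 counts with 1 mutant copy, against 414 to 456 in the double mutants, so it does not check the label.

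Hsp68 and DnaJ-1, heat-inducible members of the Hsp70 system, were higher in the double mutants too. Of 18 tested chaperone partners, 3 rose and 2 fell in the double mutants against WT, with a list median of 0.13 beside 0.01 for all genes (log2), a share near the 25.2% of all genes that passed. Hsp68, an inducible Hsp70, averaged 287 ± 104 normalised counts in the double mutants and 52.2 ± 29.5 in WT (SD, n = 3 each), a log2 difference of 2.56 (adjusted p = 0.000102). DnaJ-1, the Hsp40 partner induced by heat, averaged 872.5 ± 124 in the double mutants and 537 ± 73.9 in WT (log2 0.70, adjusted p = 0.0116). The falls were in Droj2, another J protein, at -0.50 (adjusted p = 0.000408) and in Hsc70-1, a constitutive Hsp70 relative, at -0.49 (adjusted p = 0.00344). Against foxo mutants, where 9.01% of all genes passed, 3 of 18 rose and 0 fell: Hsp68 by 2.32 (adjusted p = 0.00148), DnaJ-1 by 1.13 (adjusted p = 0.00118) and stv, the Starvin gene, by 0.54 (adjusted p = 0.0102).

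Both were lower with 1 mutant daw copy. Against the double mutants 1 of 18 rose and 5 fell, where 5.09% of all genes passed. Among those that fell were DnaJ-1 at -1.47 (adjusted p = 0.000294), Hsp68 at -2.30 (adjusted p = 0.00471), stv at -0.56 (adjusted p = 0.0137) and Hsp83, the fly Hsp90, at -1.04 (adjusted p = 0.0182) on the log2 scale. In the interaction test, where 2.09% of all genes passed, 2 of 18 passed, both positive, DnaJ-1 at 1.63 (adjusted p = 0.00187) and Hsp68 at 2.79 (adjusted p = 0.0122). In single mutants against WT the partners gave 0 calls for miR-252, where 4.39% of all genes passed, and 1 lower call for foxo, where 11.8% passed. The transcript of Hsf, the heat shock factor, did not pass in any of these comparisons, with adjusted p of 0.928 in double mutants against WT. Of 12 Hsf and FoxO regulators, 1 rose (puc, a JNK phosphatase, by 0.38, adjusted p = 0.0241) and 2 fell (chico, the insulin receptor substrate, at -0.58, adjusted p = 0.00575, and HDAC6, a deacetylase, at -0.40, adjusted p = 0.00888) in double mutants against WT, again a share near the 25.2% of all genes.

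Several hemocyte markers were higher than in WT in foxo mutants and in double mutants. Of 5, 4 were higher in double mutants and 0 lower, where 25.2% of all genes passed. In foxo mutants 2 were higher, where 11.8% of all genes passed, and 0 passed between double and foxo mutants, where 9.01% of all genes passed. With 1 mutant daw copy 0 passed against WT, where 15.9% of all genes passed, and 2 were lower than in double mutants, where 5.09% passed. Summed levels were 2717 to 4099 normalised counts in double mutants, 1850 to 2708 with 1 mutant daw copy, 2382 to 2924 in foxo mutants and 1853 to 2098 in WT. Their part in the chaperone values was not tested. The adult muscle markers summed to 96150 to 108900 counts in double mutants, against 112100 to 130100 in WT, with 2 of 10 higher and 1 lower.

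Among the 4 other alpha-crystallin genes, which are not members, several also changed in this set. In foxo mutants against WT 3 of the 4 fell, where 11.8% of all genes passed. These were CG7409 by 0.49 (adjusted p = 0.00332), CG4461 by 0.51 (adjusted p = 0.00436) and CG13133 by 1.16 (adjusted p = 0.0435), with a list median of -0.50 beside 0.01 for all genes. In double mutants against WT, where 25.2% of all genes passed, CG7409 fell by 0.83 (adjusted p = 7.13e-06) and CG4461 by 0.32 (adjusted p = 0.0407), while CG14207 rose by 0.29 (adjusted p = 0.0419). None of the 4 passed the interaction test in limma.

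A further set of females compared Atg8a and daw 3' UTR mutants with WT. Hsp23, Hsp26 and l(2)efl all rose in Atg8a mutants, whereas in daw 3' UTR foxo double mutants Hsp23 and Hsp26 rose and l(2)efl fell. The daw 3' UTR mutation alone changed none of the 3 past the threshold. Hsp27, Hsp67Ba and Hsp67Bc averaged under 10 normalised counts over this table and were left out of the main test, with Hsp67Ba at 0 to 7.29 counts. They were tested only with no filter on low values, where none of them was called in any comparison of this set.

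For l(2)efl the counts were 1160, 1212 and 953 in Atg8a mutants, 278, 329 and 241 in daw 3' UTR foxo double mutants, 404, 428 and 490 in daw 3' UTR mutants and 554, 491 and 530 in WT. The Atg8a libraries were the highest and the daw 3' UTR foxo double mutant libraries the lowest, and no pair of groups overlapped. For Hsp26 the counts were 122, 119 and 84.0 in Atg8a mutants, 68.8, 104 and 93.9 in daw 3' UTR foxo double mutants, 42.7, 29.1 and 83.7 in daw 3' UTR mutants and 21.1, 44.8 and 22.5 in WT. Replicate 3 of the daw 3' UTR mutants was far above the other libraries of its group and overlapped the double mutants. For Hsp23 the counts were 34.7, 45.2 and 18.4 in Atg8a mutants, 67.6, 63.2 and 59.7 in daw 3' UTR foxo double mutants, 7.33, 3.88 and 21.8 in daw 3' UTR mutants and 8.88, 8.48 and 3.75 in WT. Its double mutant libraries lay above all others, and its daw 3' UTR libraries overlapped both WT and Atg8a mutants.

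In Atg8a mutants against WT all 3 tested members passed, all higher, where 9.89% of all 8271 genes passed. The fold was 2.10 for l(2)efl (log2 1.07, SE 0.13, adjusted p = 0.000155), 3.75 for Hsp26 (log2 1.91, SE 0.34, adjusted p = 0.00311) and 4.16 for Hsp23 (log2 2.06, SE 0.47, adjusted p = 0.0142). The Hsp23 call was lost without Atg8a replicate 1 (adjusted p = 0.0559) or replicate 2 (adjusted p = 0.0648). Hsp67Bc, under the filter and not called without it, had 6.60, 9.47 and 6.13 counts in Atg8a mutants and 4.44, 2.42 and 2.50 in WT. These did not overlap, but they are only 8, 13 and 7 reads against 4, 2 and 2. Hsp27 had 2.48, 13.1 and 5.25 counts in Atg8a mutants and 1.11, 15.8 and 6.25 in WT, which overlapped.

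In daw 3' UTR foxo double mutants all 3 members passed against WT, 2 higher and 1 lower, where 35.8% of all genes passed. Hsp23 was 8.44-fold higher (log2 3.08, SE 0.47, adjusted p = 0.000173), Hsp26 3.08-fold higher (log2 1.62, SE 0.34, adjusted p = 0.00184) and l(2)efl 0.536-fold (log2 -0.90, SE 0.13, adjusted p = 7.97e-05). Against daw 3' UTR mutants 2 of the 3 passed, where 30.6% of all genes passed: Hsp23 was 6.61-fold higher (adjusted p = 0.000685) and l(2)efl 0.639-fold (adjusted p = 0.00140). Hsp26 differed by 0.88 (adjusted p = 0.0626), and by 1.29 (adjusted p = 0.00750) without daw 3' UTR replicate 3. Hsp27, under the filter and not called without it, had 16.6, 12.7 and 13.2 counts in the double mutants, above 6.10, 3.88 and 5.46 in daw 3' UTR mutants. In daw 3' UTR mutants against WT 0 of 3 passed in limma, edgeR and DESeq2, 1 (Hsp26) had an unadjusted p under 0.05, and 3.12% of all genes passed. There l(2)efl was at -0.25 (95% interval -0.52 to 0.01), Hsp26 at 0.74 (0.02 to 1.47) and Hsp23 at 0.35 (-0.66 to 1.37). No foxo single mutant is in this set, so the foxo allele and its combination with the daw allele cannot be told apart within it.

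**Figure D2:**
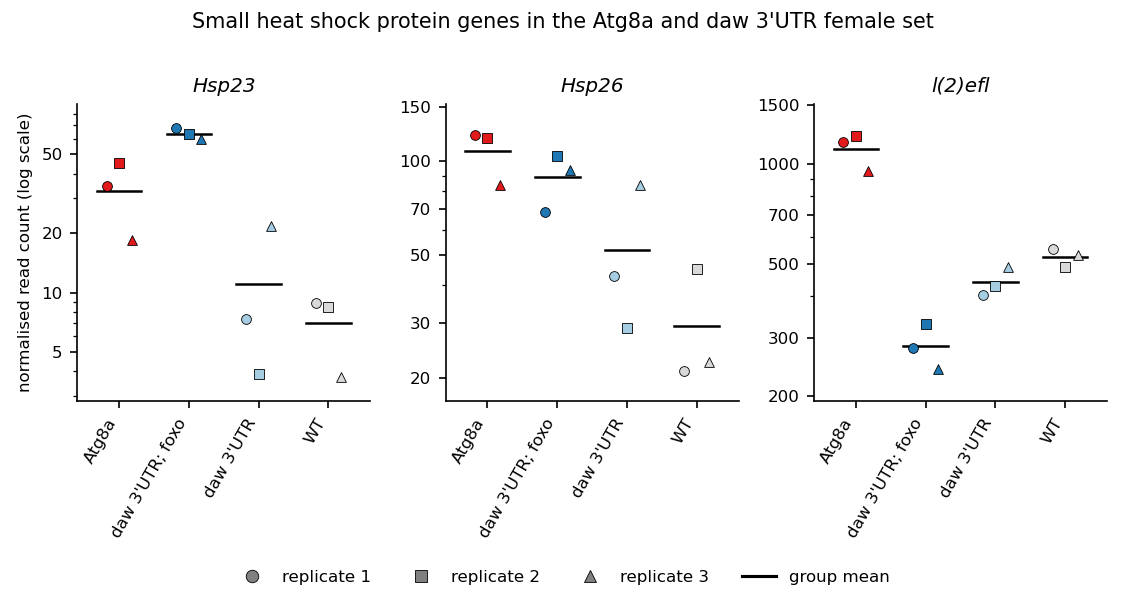
Normalised counts of l(2)efl, Hsp26 and Hsp23 on a log axis, 1 point per library and a bar at the mean of 3, in muscle of 3 d females of the Atg8a and daw set. For l(2)efl the Atg8a mutants lie between 953 and 1212 and the daw 3' UTR foxo double mutants between 241 and 329, on opposite sides of WT at 491 to 554.

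Other alpha-crystallin genes rose with the members in Atg8a mutants. Of 4, 3 rose, with a list median of 0.72 beside 0.00 for all genes: CG14207 averaged 1845 ± 357 normalised counts in Atg8a mutants and 834 ± 44.6 in WT (log2 1.13, adjusted p = 6.95e-05), CG4461 3413 ± 209 and 1709 ± 44.1 (log2 1.00, adjusted p = 1.41e-05), and CG7409 differed by 0.45 (adjusted p = 0.0217). Of 18 chaperone partners 3 rose, where 9.89% of all genes passed, namely Hsp68 by 1.31 (adjusted p = 0.00442), stv by 0.34 (adjusted p = 0.0297) and DnaJ-H, a J protein, by 0.37 (adjusted p = 0.0456). In daw 3' UTR foxo double mutants against WT 6 of 18 partners rose and 1 fell, a share near the 35.8% of all genes, with Hsp68 at 1.29 (adjusted p = 0.000968), Hsp83 at 0.56 (adjusted p = 0.00114), Hsc70-4, the main constitutive Hsp70, at 0.40 (adjusted p = 0.00607) and Hsc70-1 at -0.36 (adjusted p = 0.00833). There 2 alpha-crystallin genes fell, CG4461 by 1.03 (adjusted p = 1.15e-06) and CG7409 by 0.69 (adjusted p = 0.000313). In daw 3' UTR mutants against WT CG4461 fell by 0.48 (adjusted p = 0.00621).

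Of 5 hemocyte markers 4 were higher in daw 3' UTR foxo double mutants than in WT, where 35.8% of all genes passed. Their sums were 3032 to 3777 normalised counts, against 1895 to 1963, and their part in the result was not tested. In Atg8a mutants the hemocyte sums were 1395 to 1658. Adult muscle markers summed to 112700 to 143600 counts in Atg8a mutants, 124400 to 164400 in daw 3' UTR foxo double mutants and 123300 to 136700 in WT. Single markers moved both ways. Of 10, 2 were higher and 2 lower in Atg8a mutants than in WT, where 9.89% of all genes passed. In daw 3' UTR foxo double mutants 6 were higher and 3 lower than in WT, where 35.8% passed.

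Under axenic culture the l(2)efl difference between foxo mutants and WT was again present. In the authors' deposited table l(2)efl had a log2 fold change of -1.24 (SE 0.203, adjusted p = 1.27e-07) in axenic foxo mutants over axenic WT, at a mean of 486 normalised counts. The authors' deposited table gave 0.32 for Hsp23 (adjusted p = 0.759), 0.28 for Hsp26 (adjusted p = 0.781), 0.34 for Hsp27 (adjusted p = 0.745) and -0.36 for Hsp67Bc (adjusted p = 0.672), and no adjusted p for Hsp67Ba. One of the 5 members with an adjusted p passed, where 6.25% of genes passed in the authors' deposited table. Mean levels there were 13.9 counts for Hsp23, 39.7 for Hsp26, 12.4 for Hsp27 and 4.33 for Hsp67Bc in the authors' deposited table. No value per library was used for the axenic flies, so the difference from standard food was not tested.

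**Figure D3:**
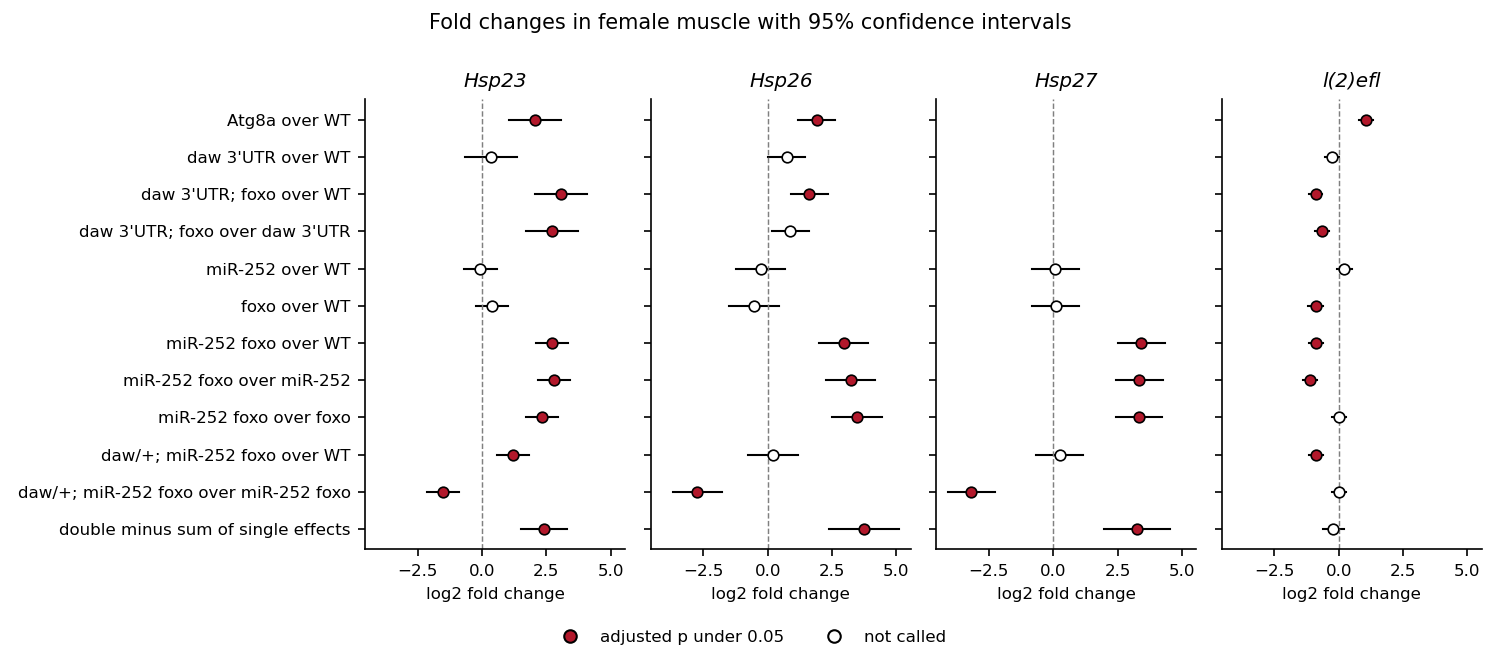
Log2 fold changes of Hsp23, Hsp26, Hsp27 and l(2)efl in the comparisons of female muscle, with the miR-252 by foxo interaction in the bottom row, as points with 95% intervals from limma, filled where the adjusted p was under 0.05 and left out for Hsp27 in the Atg8a and daw set. Hsp23, Hsp26 and Hsp27 lie at 2.72 to 3.42 in miR-252 foxo double mutants against WT, and l(2)efl lies near -0.90 in each group homozygous for the foxo allele against WT.

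In ageing male muscle Hsp26, Hsp27, Hsp23 and Hsp67Bc had their lower means at 15 and 45 d and their higher means at 3 and 30 d, and l(2)efl had its higher means at 30 and 45 d. In the cluster genes 1 library of the 45 d group stood far above the others of its age. None of the cluster genes passed between neighbouring ages in limma with all ages in the fit, and 2 of the 25 member tests in the set passed.

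Hsp26 had 751, 1066 and 1702 normalised counts at 3 d, 514, 751 and 348 at 15 d, 1359, 1600 and 1648 at 30 d, and 106, 101 and 1261 at 45 d. Hsp27 had 301, 380 and 498 at 3 d, 176, 217 and 108 at 15 d, 434, 575 and 549 at 30 d, and 25.6, 26.6 and 422 at 45 d. Hsp23 had 151, 205 and 290.3 at 3 d, 120.2, 126 and 57.6 at 15 d, 203, 265.5 and 245 at 30 d, and 40.7, 55.9 and 203 at 45 d. In each of these genes all 15 d libraries lay at or below the lowest 3 d library, and 45 d replicate 3 lay inside the 3 d range while replicates 1 and 2 were the lowest of all 12. Hsp67Bc had 15.9, 28.2 and 26.4 counts at 3 d, 7.45, 9.27 and 6.58 at 15 d, 21.6, 23.0 and 29.6 at 30 d, and 3.77, 1.77 and 17.2 at 45 d, which are 2 to 36 reads per library. For l(2)efl the counts were 352, 479 and 607 at 3 d, 337, 375 and 344 at 15 d, 683, 766 and 753 at 30 d, and 575, 692 and 791 at 45 d. Its 30 d libraries all lay above the 3 d and 15 d libraries, and its 45 d group had no low libraries of the kind seen in the cluster genes. Hsp67Ba, at 0 to 6.60 counts, was tested only with no filter on low values, and not called there.

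**Figure D4:**
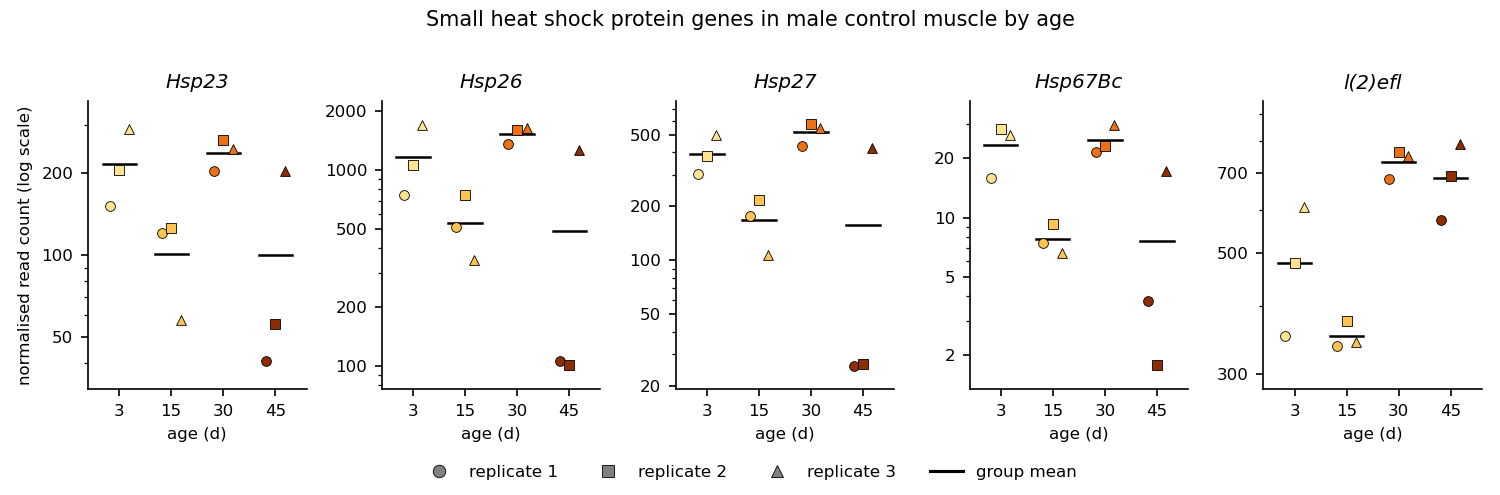
Normalised counts of the members on a log axis at 3, 15, 30 and 45 d in muscle of WT males, 1 point per library and a bar at the mean of 3. At 45 d Hsp26 stands at 101 and 106 in replicates 2 and 1 and at 1261 in replicate 3, while l(2)efl stands at 575 to 791 in all of them.

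At 15 d against 3 d 0 of the 5 tested members passed in limma and in edgeR, 1 in DESeq2 (Hsp67Bc), and 2 had an unadjusted p under 0.05, where 7.97% of all 8393 genes passed. Without 3 d replicate 3 limma called 0 of the 5 members and 2584 of 8364 genes. The log2 differences were -1.45 for Hsp67Bc (SE 0.55, adjusted p = 0.146), -1.26 for Hsp27 (SE 0.82, adjusted p = 0.410), -1.11 for Hsp26 (SE 0.77, adjusted p = 0.436), -1.11 for Hsp23 (SE 0.51, adjusted p = 0.235) and -0.41 for l(2)efl (SE 0.20, adjusted p = 0.255). At 30 d against 3 d 1 of 5 passed, where 13.5% of genes passed: l(2)efl was 1.57-fold higher (log2 0.65, SE 0.20, adjusted p = 0.0492), with no overlap. That call lay close to the threshold and was lost when any single library other than 3 d replicate 3 was left out (adjusted p 0.0734 to 0.152) and in edgeR (adjusted p = 0.0570), and without that library its adjusted p was 7.70e-05. The cluster genes differed by 0.10 to 0.46 at 30 d against 3 d and did not pass. Without 3 d replicate 3 they did not pass either, while 3526 of 8364 genes did.

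At 45 d against 3 d 1 of 5 passed, where 18.9% of genes passed. Hsp67Bc was 0.261-fold (log2 -1.94, SE 0.55, adjusted p = 0.0291), a call lost without 3 d replicate 2 (adjusted p = 0.0725) or 45 d replicates 1 (adjusted p = 0.106) or 2 (adjusted p = 0.108), and in edgeR (adjusted p = 0.0564). The others stood at -2.51 for Hsp27 (adjusted p = 0.0531), -2.21 for Hsp26 (adjusted p = 0.0678), -1.41 for Hsp23 (adjusted p = 0.0764) and 0.54 for l(2)efl (adjusted p = 0.0788). Which library was left out decided these calls, and it moved the count over all genes too. Without 3 d replicate 3 limma called 4080 of 8364 genes, and without 45 d replicate 3 it called 1045 of 8390. Without 3 d replicate 3 all 5 passed, with -2.32 for Hsp27 (adjusted p = 0.0211), -1.90 for Hsp26 (adjusted p = 0.0370), -1.17 for Hsp23 (adjusted p = 0.0481), -1.84 for Hsp67Bc (adjusted p = 0.0127) and 0.73 for l(2)efl (adjusted p = 0.000227). Without 45 d replicate 3 all 4 cluster genes passed, with -3.83 for Hsp27 (adjusted p = 1.94e-05), -3.41 for Hsp26 (adjusted p = 0.000141), -2.71 for Hsp67Bc (adjusted p = 0.000671) and -2.10 for Hsp23 (adjusted p = 0.00346).

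Between neighbouring later ages the libraries of several members did not overlap, though limma with all ages in the fit called none of them. How many of all genes separate in this way was not counted, so the lack of overlap is a description only. At 30 d against 15 d all 5 members were higher without overlap, by 1.06 for l(2)efl to 1.68 for Hsp27 on the log2 scale, yet 0 passed in limma (adjusted p = 0.0912 for l(2)efl and 0.798 to 1.00 for the cluster genes). There 3 of 5 had an unadjusted p under 0.05, edgeR called 0 and DESeq2 1, and limma called 0.0834% of all genes, which is 7. With only the 15 and 30 d libraries in the limma fit, all 5 members passed (adjusted p of 5.59e-07 for l(2)efl, 4.41e-05 for Hsp27, 7.71e-05 for Hsp26, 0.00129 for Hsp23 and 0.00177 for Hsp67Bc), as did 677 of all genes. At 45 d against 30 d Hsp23, Hsp26, Hsp27 and Hsp67Bc were lower without overlap, at -1.60, -2.67, -2.93 and -2.03 on the log2 scale, and 0 of 5 passed in limma, edgeR and DESeq2, while 4 had an unadjusted p under 0.05. Limma called 0% of all genes there, with 263 at an unadjusted p under 0.05, edgeR called 0 and DESeq2 21. With only the 30 and 45 d libraries in the limma fit, 300 genes passed, Hsp26 among them (adjusted p = 0.0492), while Hsp23, Hsp27 (each adjusted p = 0.0502) and Hsp67Bc (adjusted p = 0.0511) did not. In the fit over all ages the 4 cluster genes had adjusted p of 0.910 to 1.00, and l(2)efl was at -0.11 (95% interval -0.54 to 0.32). With the 3 d replicate 3 library out of the common fit, a setting chosen after seeing the data, Hsp26 (adjusted p = 0.0346), Hsp27 (adjusted p = 0.0345) and Hsp67Bc (adjusted p = 0.0404) passed at 45 d against 30 d and l(2)efl at 30 d against 15 d (adjusted p = 6.05e-05). In that setting 248 of all genes passed at 45 d against 30 d and 527 at 30 d against 15 d. Without 45 d replicate 3, Hsp26 (log2 -3.87, adjusted p = 0.000895), Hsp27 (log2 -4.25, adjusted p = 0.000308) and Hsp67Bc (log2 -2.81, adjusted p = 0.0111) passed at 45 d against 30 d, where 10 of all genes passed.

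CG7409 and CG4461, among the 4 other alpha-crystallin genes, were lower at 15, 30 and 45 d than at 3 d. CG14207 also passed as lower at 15 d (adjusted p = 0.0344) and 30 d (adjusted p = 0.0297) but not at 45 d (adjusted p = 0.0719), and CG13133 at 45 d (adjusted p = 0.0348) but not before. At each later age 3 of 4 thus passed, where 7.97%, 13.5% and 18.9% of all genes passed at 15, 30 and 45 d. The list medians were -0.97, -1.29 and -1.64 beside 0.06, 0.07 and 0.07 for all genes. The CG7409 mean was 3116 ± 1175 normalised counts in 3 d males, 744 ± 50.8 in 15 d males, 359 ± 54.5 in 30 d males and 249.8 ± 23.6 in 45 d males, a log2 difference of -3.58 at 45 d against 3 d (adjusted p = 9.15e-07). CG4461 fell by 1.79 at 45 d against 3 d (adjusted p = 0.000123). Adult muscle markers were lower too: 7 of 10 were lower at 45 d against 3 d, where 18.9% of all genes passed. Their median log2 difference was -2.19 beside 0.07 for all genes. The muscle sums were 104300 to 200900 counts at 3 d, 39180 to 46890 at 15 d, 34160 to 38380 at 30 d and 32380 to 34170 at 45 d. Their part in the age differences was not tested. Hemocyte sums were 1026 to 2082 at 3 d and 2246 to 2634 at the later ages.

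Several constitutive chaperones were higher in older muscle. Of 23 tested partners 6 rose and 1 fell at 30 d against 3 d, where 13.5% of all genes passed, and 6 rose and 2 fell at 45 d against 3 d, where 18.9% passed. Hsc70-4 rose by 1.06 (adjusted p = 0.00124) at 30 d and by 1.204 (adjusted p = 0.000364) at 45 d, and Hsc70-5, the mitochondrial Hsp70, by 0.84 (adjusted p = 0.000975) and 0.77 (adjusted p = 0.00127). Hsp83 rose by 1.36 (adjusted p = 0.00579) at 30 d. Hsc70-1 fell by 0.77 (adjusted p = 0.00570) at 30 d and by 1.05 (adjusted p = 0.000513) at 45 d. Of 11 regulators 3 rose and 1 fell at 45 d against 3 d, among them srl, a PGC-1 relative, by 1.55 (adjusted p = 0.0157), and Thor, the 4E-BP gene and a FoxO target, fell by 0.70 (adjusted p = 0.0119). The ages share the 3 d libraries.

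The genes most like the members in profile were named for each set by their correlation with the mean standardised log2 level of the tested members over all libraries. Over the 12 male libraries these were Hsp68 (r = 0.941), DnaJ-1 (r = 0.940), the noncoding alphagamma-element:CR32865 (r = 0.906) and Hsp70Bc (r = 0.903), an inducible Hsp70 whose reads may be split among near-identical copies. Hsp68 showed the same uneven 45 d group, with 143, 99.3 and 2217 counts at 45 d, against 2265, 2523 and 2732 at 30 d. DnaJ-1 had 283, 300.5 and 1740 counts at 45 d and 1794, 2006 and 2276 at 30 d. Among the members themselves Hsp26 and Hsp27 correlated at 0.995 and Hsp23 and Hsp26 at 0.961, while l(2)efl correlated with the cluster genes at 0.18 to 0.34. These points share libraries and age groups and are a description only.

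**Figure D5:**
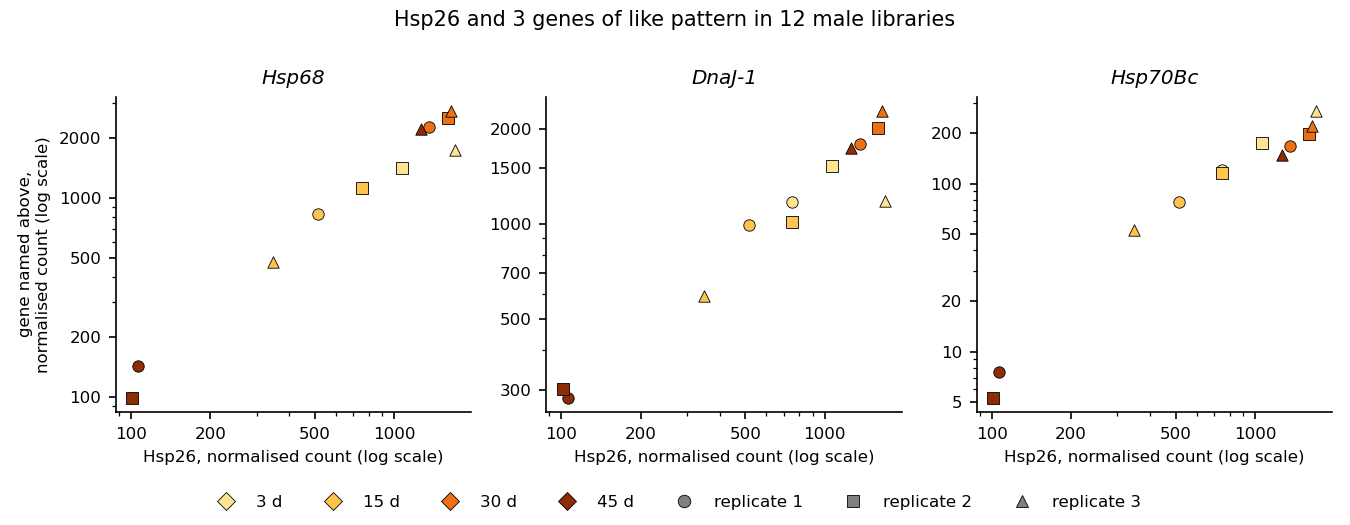
Normalised counts of Hsp68, DnaJ-1 and Hsp70Bc against those of Hsp26 on log axes, 1 point per male muscle library, coloured by age and shaped by replicate. The 45 d replicates 1 and 2 lie alone at the lower left, with Hsp26 at 106 and 101 and Hsp68 at 143 and 99.3 counts, and 45 d replicate 3 lies near the 30 d libraries.

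In females the nearest genes were of other kinds. Over 15 libraries of miR-252 and foxo genotypes these were Skeletor (r = 0.879), Trxr-1, a thioredoxin reductase (r = 0.879), Neurochondrin (r = 0.876) and Rpt4, a proteasome subunit (r = 0.862). In the Atg8a and daw set (12 libraries) they were CG17264 (r = 0.926), Xbp1, a factor of the unfolded protein response (r = 0.919), Trip1, a translation initiation factor subunit (r = 0.908), and CG6283 (r = 0.906). In both female sets the profile mixes l(2)efl with the cluster genes. In the Atg8a and daw set l(2)efl correlated with Hsp23 at -0.09 and with Hsp26 at 0.22. Among the miR-252 and foxo genotypes it correlated with the cluster genes at -0.59 to -0.27, while Hsp26 and Hsp27 correlated at 0.962.

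In Ago1 precipitates over input from whole flies, where an enriched transcript is one bound by the microRNA effector, 1 member departed at 3 d. The authors' deposited table gave Hsp26 a log2 fold change of -0.61 at 3 d (SE 0.141, adjusted p = 0.000164), lower in the precipitate, at a mean of 1447 normalised counts. One of the 5 members with an adjusted p passed at 3 d, where 26% of genes passed in the authors' deposited table. The authors' deposited table gave -0.33 for Hsp27 (adjusted p = 0.0883), 0.75 for Hsp23 (adjusted p = 0.123), 0.33 for Hsp67Bc (adjusted p = 0.749) and 0.23 for l(2)efl (adjusted p = 0.698) at 3 d. At 30 d 0 of 6 passed, where 16.5% of genes passed in the authors' deposited table, with Hsp26 at -0.70 (adjusted p = 0.0822) and Hsp27 at -0.41 (adjusted p = 0.305). No member was called enriched in the precipitates at either age in the authors' deposited table.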

How the data were processed

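The authors deposited 3 tables whose signal is a normalised read count for each gene in each library, scaled within the table. STAR, HTSeq, DESeq and build dm6 are named without versions or roles, per the submitters' processing notes. The authors' deposited comparison tables give log2 fold changes and p-values with their adjusted form, used as they stand.

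Division by the value of 1 read turned 100% of values into whole reads within 0.01. Genes averaging at least 10 (8393, 8271 and 8357 in the ageing, Atg8a and daw, and miR-252 and foxo tables) were tested by limma-trend (limma 3.58.1 under R 4.3.3) after adding 1 and taking log2. The fit held all groups of a table and no replicate block, and Benjamini-Hochberg adjusted p under 0.05 over all genes was called. Fold changes understate changes of low genes.

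Other settings were a pseudocount of 8, no filter, upper-quartile rescaling, whole reads in edgeR 4.0.16 or in DESeq2 1.42.0, a fit of the compared groups alone, a replicate block, and each library left out. The steps were tested on simulated data, where a minimum recovery of planted changes was required for the female tables but not for the ageing table. WT columns of the miR-252 and foxo table carry no sample number. Members and gene lists were chosen with earlier results of these data known. List genes named are up to 4 with the smallest adjusted p in a comparison.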

Additional observations from a re-analysis of the deposited data

Results flagged for a closer look

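Hsp23, Hsp26 and Hsp27 differed in their response to the miR-252 mutation with and without the foxo mutation, by the interaction term of limma's fit. The excess of the double mutant over the sum of the single effects was 2.40 for Hsp23 (adjusted p = 0.00313), 3.75 for Hsp26 (adjusted p = 0.00246) and 3.25 for Hsp27 (adjusted p = 0.00596) on the log2 scale. All 3 double mutant libraries exceeded all 9 libraries of the single mutants and WT for each gene, which is a description only. The excess stayed past the threshold when any of the 12 libraries was left out, at 2.11 to 2.64 for Hsp23, 3.32 to 4.23 for Hsp26 and 2.91 to 3.85 for Hsp27.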

How the results depend on the processing

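Of 911 member values under other settings, 845 kept direction and side of the threshold, 17 lost the call, 23 gained it and 26 changed sign, none of these last called. Of 398 values of called results, 381 kept the call. Counts of called members changed in all 5 ageing comparisons and in 3 of the female ones. At 15 d against 3 d DESeq2 called 1 member, against 0 in limma. At 30 d against 3 d the count was 0, against 1, with no filter, upper-quartile rescaling, edgeR or only the groups compared, and 0 to 1 with a library left out. At 45 d against 3 d it was 0, against 1, with edgeR or only the groups compared, and 0 to 5 with a library left out (5 without 3 d replicate 3, 4 without 45 d replicate 3). At 30 d against 15 d it was 1 with DESeq2 and 5 with only the groups compared, against 0, and 0 to 1 with a library left out. At 45 d against 30 d it was 1 with only the groups compared, against 0, and 0 to 3 with a library left out. In double mutants with 1 mutant daw copy against WT it was 1 to 2 with a library left out, against 2. In Atg8a mutants against WT it was 2 without Atg8a replicate 1 or 2, against 3, and in daw 3' UTR foxo double against daw 3' UTR mutants 3 without daw 3' UTR replicate 3, against 2. Over all genes, only the groups compared gave 160 calls at 15 d, 338 at 30 d and 511 at 45 d against 3 d, against 669, 1132 and 1586 in the fit over all ages, 677 at 30 d against 15 d, against 7, and 300 at 45 d against 30 d, against 0. It gave 537 in Atg8a mutants against WT, against 818, and 113 in double mutants with 1 mutant daw copy against double mutants, against 425. DESeq2 called 60 at 30 d against 15 d and 21 at 45 d against 30 d, and the block 1 there. With 3 d replicate 3 out of the common fit, limma called 527 genes at 30 d against 15 d and 248 at 45 d against 30 d. The cause was not tested.

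Signs that changed all belong to differences that did not pass. For Hsp27, miR-252 mutants against WT gave -0.036 in edgeR and -0.049 in DESeq2, and foxo mutants -0.060 in edgeR and -0.068 in DESeq2. For l(2)efl, double against foxo mutants gave -0.019 after upper-quartile rescaling. With a library left out, 30 d against 3 d ranged from -0.043 to 0.42 for Hsp23 and -0.15 to 0.25 for Hsp67Bc, and 45 d against 30 d from -0.22 to 0.014 for l(2)efl. For Hsp23 daw 3' UTR mutants against WT ranged from -0.26 to 0.85. In miR-252 mutants against WT the ranges were -0.27 to 0.072 for Hsp23, -0.75 to 0.11 for Hsp26 and -0.52 to 0.42 for Hsp27, and in foxo mutants -0.51 to 0.43 for Hsp27. In double mutants with 1 mutant daw copy against WT they were -0.26 to 0.70 for Hsp26 and -0.35 to 0.59 for Hsp27, and for l(2)efl -0.092 to 0.12 in double against foxo mutants and -0.090 to 0.075 with 1 mutant daw copy against double mutants.

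Over all tested genes the replicate numbers showed little or no pairing, a check that left out WT of the miR-252 and foxo set. Correlations of same-numbered libraries were -0.13 to 0.28 over 18 group pairs, with 0 pairs of groups above 0.1 throughout. This does not exclude pairing for single genes. For Hsp26 the library numbered 3 was the lowest in WT, miR-252 mutants, foxo mutants and daw heterozygous double mutants, but not in double mutants. With the number as a block, 0 of 49 member values changed their call, and all 3 members stayed called in Atg8a mutants against WT. No paired analysis was possible for contrasts with WT of the miR-252 and foxo set and for the interaction because those WT columns carry no number. At about 2 to 36 reads per library, Hsp67Bc in males is limited by depth.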

Other observations

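CG4461, another alpha-crystallin gene, lies inside the 67B cluster on 3L (9375430 to 9376293, build BDGP6.54), 124 bases from Hsp26. It was among the abundant genes of the family in female muscle, averaging 1919 ± 208 normalised counts in miR-252 foxo double mutants and 1672 ± 155 in foxo mutants (SD, n = 3 each). There the log2 difference was 0.20 for CG4461 (adjusted p = 0.317) and 3.48 for Hsp26 (adjusted p = 8.36e-05). In Atg8a mutants both genes rose against WT, CG4461 by 1.00 (adjusted p = 1.41e-05) and Hsp26 by 1.91 (adjusted p = 0.00311) on the log2 scale. HDAC6, a deacetylase of the Hsp90 system, had a negative interaction of the miR-252 and foxo mutations, at -0.70 (adjusted p = 0.0160). It fell by 0.51 in double mutants against foxo mutants (adjusted p = 0.00585) and rose by 0.44 with 1 mutant daw copy against double mutants (adjusted p = 0.0212). Thor, a FoxO target, rose by 0.76 in miR-252 mutants against WT (adjusted p = 0.0478).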
